A study of Rattus norvegicus with 9 samples.

Results

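Alveolar fluid transport channels and pumps are described here through 9 genes taken by their symbol. They were chosen with earlier results of these data known. These are the epithelial sodium channel subunits Scnn1a, Scnn1b and Scnn1g, the chloride channel Cftr and the sodium pump subunit Atp1b1. The others are the water channels Aqp1, Aqp3 and Aqp4, and the ubiquitin ligase gene Nedd4l. All 9 were measured, each by a single probe, out of 14497 genes named on the array. The samples were lungs of 3 Wistar rats with metabolic syndrome (MetS) and 4 Wistar controls. For 24 weeks after weaning the MetS rats were given only a 30% sucrose solution to drink, while the controls had plain water. The group name rests on this diet, and no body weight or blood value was used here. Standard chow was given to both groups, and both were fasted for 7 hours before they were killed. The MetS rats are labelled male, and no sex is given for the controls. RNA of whole lung was hybridised to an Affymetrix rat gene array that gives a log2 expression value per transcript. MetS animal 1 and control animal 1 had 2 arrays each, which were averaged, so that 9 arrays stood for 7 animals. Housing and litters of single animals are not stated, so p-values measure the spread between these animals.

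The air side of the lung is kept thinly wet by salt transport. Sodium enters alveolar and airway epithelial cells through the epithelial sodium channel, built from alpha, beta and gamma subunits, and leaves on the blood side through the Na,K-ATPase, a pump that needs its beta subunit to reach the membrane. Water follows the salt across the cells, in part through aquaporins, and Cftr passes chloride in either direction. Nedd4l, known as Nedd4-2, ubiquitinates the sodium channel and takes it off the cell surface, and glucocorticoid and mineralocorticoid hormones are known to raise channel and pump activity.

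Of the 9 genes, 1 subunit of the sodium channel and 1 of the sodium pump separated the groups. Atp1b1, the beta subunit of the pump, averaged 11.97 ± 0.16 in MetS (SD, n = 3) and 11.61 ± 0.13 in controls (SD, n = 4), a 1.28-fold difference. Scnn1a, the alpha subunit of the channel, averaged 11.34 ± 0.04 in MetS (SD, n = 3) and 11.11 ± 0.15 in controls (SD, n = 4), a 1.18-fold difference. For both genes every MetS animal lay above every control. The other 7 genes overlapped between the groups, and the differences of all 9 lay between 0.02 and 0.35 on the log2 scale, each higher in MetS as measured. That direction held for 6 to 9 of the 9 genes when single animals were left out, against 58.5% to 63.0% of named genes. It held for 5 without controls 2 and 3, against 54.8% of named genes. With the spread of each array in the fit it held for 3, against 48.8%.

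None of the 9 passed the test over all 28826 probes (limma, Benjamini-Hochberg adjusted p between 0.324 and 0.966), so these values describe 7 animals. In that test 0% of all probes passed, while 3959 (13.7%) had an unadjusted p under 0.05. Among the 9 genes 2 had an unadjusted p under 0.05 and stood higher in MetS, against 3.82% of all probes and 3.87% of named genes, and 0 stood lower, against 9.91% and 9.17%. The same 2 genes stood apart without overlap, against 4.88% of all probes and 5.57% of named genes with every MetS animal above every control, and 6.84% of all probes with every MetS animal below every control. A measured difference above 0 was seen in 9 of the 9 genes, against 53.3% of all probes and 62% of named genes. All 9 lie above the 25th percentile of probe means, and of the 12007 named genes there 71.7% stood higher. At an unadjusted p under 0.05 (limma), 1050 of the 21619 probes above that percentile stood higher and 1131 lower. The median difference of the 9 was 0.21, that of all named genes 0.04 and that of named genes above that percentile 0.06. The median of the 9 was 0.11 without MetS animal 1, 0.05 with array weights, 0.01 without controls 2 and 3 and -0.07 with the spread of each array in the fit.

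**Figure D1:**
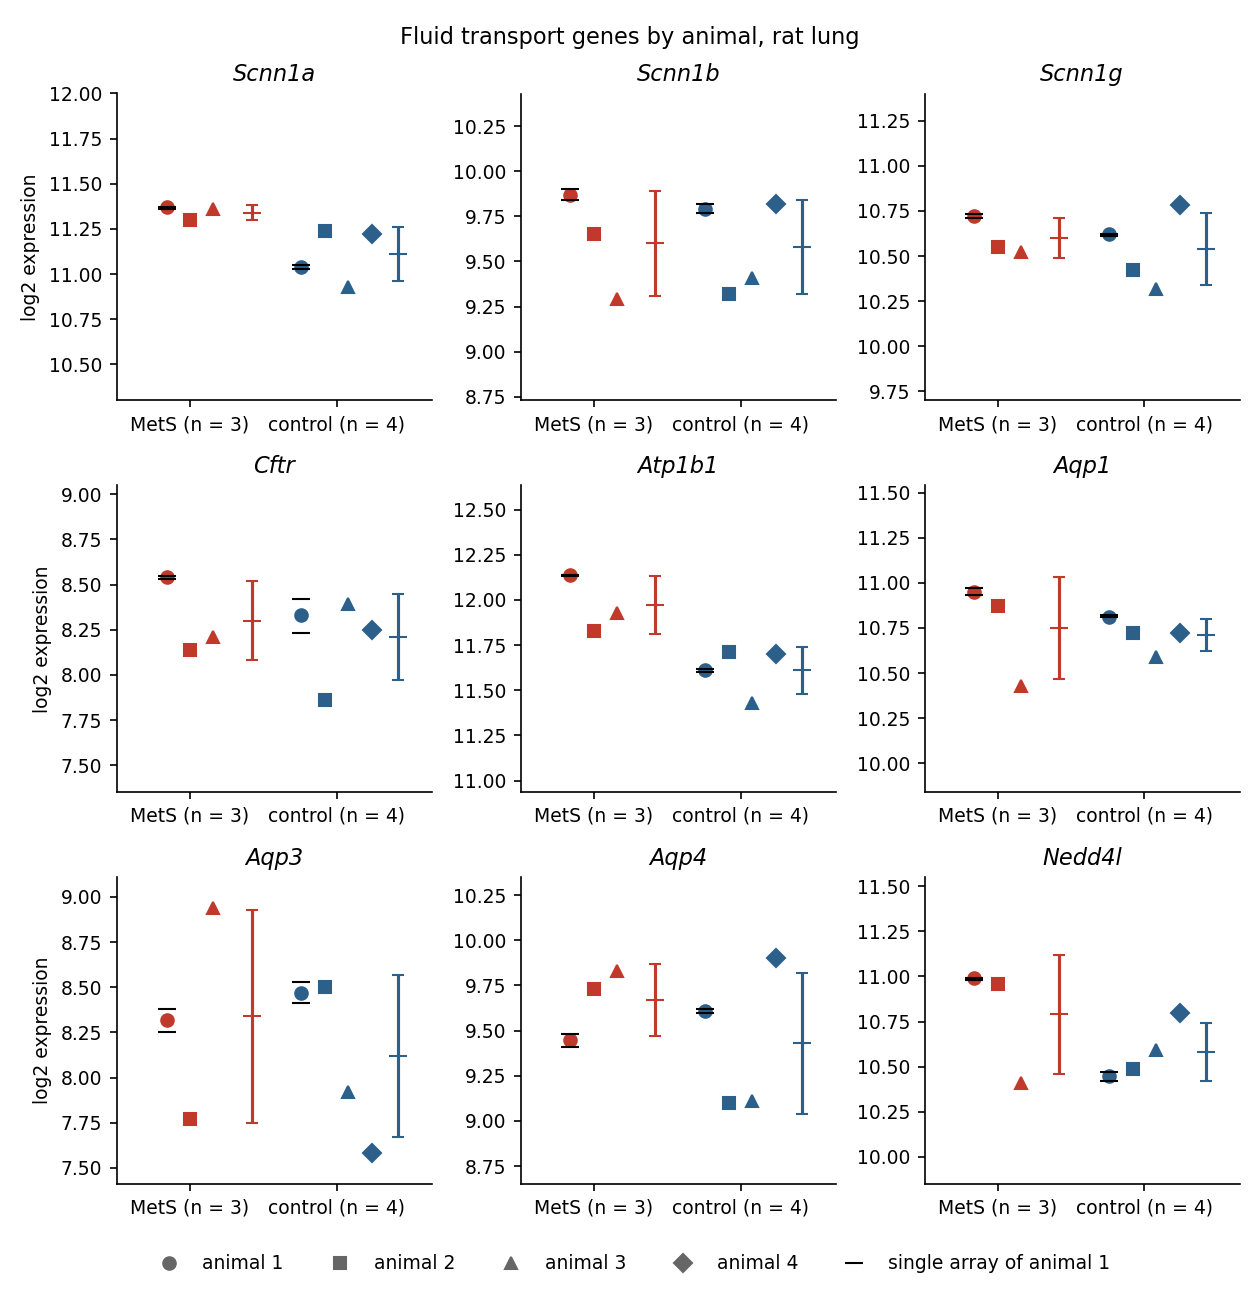
Log2 expression of each of the 9 genes in each animal, MetS left and control right, with the mean and SD beside the points and the single arrays of animal 1 as black dashes; every panel spans the same log2 range. Atp1b1 and Scnn1a separate the groups, Aqp3 is the most spread out, and the repeat arrays lie farthest apart for Cftr in control animal 1.

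Over the 9 genes and both animals with 2 arrays, the repeat arrays differed by 0.01 to 0.19 on the log2 scale, with a median of 0.02. Over all probes the median gap was 0.06 in MetS animal 1 and 0.08 in control animal 1. The widest gap was that of Cftr in control animal 1, which read 8.42 on its first array and 8.23 on its second, close to the pooled SD of 0.23 between animals of a group. For Atp1b1 the repeat arrays differed by 0.01 in MetS animal 1 and by 0.02 in control animal 1, while the pooled SD between animals of a group was 0.14. For Scnn1a the repeat arrays differed by 0.02 in each of these animals, and the pooled SD between animals was 0.12. The labels do not state at which step the repeats were split.

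Of the 3 sodium channel subunits, the alpha subunit, which is needed for the channel to form, differed most. Scnn1a stood at 11.37, 11.30 and 11.36 in MetS animals 1 to 3, against 11.04, 11.24, 10.93 and 11.22 in controls 1 to 4. The lowest MetS animal was 0.07 above the highest control, a gap smaller than the spread among the controls. The log2 difference was 0.24 (95% interval 0.03 to 0.44; limma, adjusted p = 0.34, unadjusted p = 0.0325), or 1.18-fold with an interval of 1.02 to 1.36. The unadjusted p was above 0.05 without any 1 of MetS animals 1, 2 and 3 and controls 1 and 3, reaching 0.0842 without MetS animal 1, while the difference stayed between 0.18 and 0.28.

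The beta and gamma subunits did not separate the groups. Scnn1b stood at 9.87, 9.65 and 9.29 in MetS animals 1 to 3, against 9.79, 9.32, 9.41 and 9.82 in controls 1 to 4. MetS animal 1 held the highest and MetS animal 3 the lowest value of all 7, and the controls fell between them. The difference was 0.02 (95% interval -0.40 to 0.44; limma, adjusted p = 0.966), which leaves room for a 1.36-fold higher level in MetS. Scnn1g stood at 10.72, 10.55 and 10.52 in MetS animals 1 to 3, against 10.62, 10.42, 10.32 and 10.78 in controls 1 to 4. The highest value was that of control 4 and the lowest that of control 3, so the controls enclosed the MetS animals. The difference was 0.06 (95% interval -0.22 to 0.34; limma, adjusted p = 0.815). Whether Scnn1a differed more than the other subunits was not tested.

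Scnn1b and Scnn1g are next to each other on chromosome 1, with 0 genes listed between them in the RefSeq annotation of assembly GRCr8, and the sequence before each start is shown for that reason. The 250 bases before the annotated start are printed 5′ to 3′ on the gene's strand, from RefSeq, in lower case with motif matches in capitals. The motifs searched on both strands were the GC box GGGCGG, the core TATA box TATAAA, the cyclic AMP response element TGACGTCA with its half-site TGACG, and the glucocorticoid receptor half-site AGAACA. The half-site TGACG lies within TGACGTCA, so a full element would count for both.
Scnn1b, chr1:185861126-185861375, plus strand: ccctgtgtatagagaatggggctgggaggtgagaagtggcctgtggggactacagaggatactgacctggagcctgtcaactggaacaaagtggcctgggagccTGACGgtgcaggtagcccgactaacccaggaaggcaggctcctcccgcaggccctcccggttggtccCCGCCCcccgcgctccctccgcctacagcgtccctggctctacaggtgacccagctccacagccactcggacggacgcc
Scnn1g, chr1:185735975-185736224, plus strand: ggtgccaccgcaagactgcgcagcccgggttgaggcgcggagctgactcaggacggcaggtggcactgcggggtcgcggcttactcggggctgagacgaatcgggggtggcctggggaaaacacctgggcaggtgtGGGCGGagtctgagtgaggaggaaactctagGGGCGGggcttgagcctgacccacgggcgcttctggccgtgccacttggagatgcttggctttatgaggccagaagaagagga
Scnn1g held GGGCGG at 2 places, starting 114 and 83 bases before the start. Scnn1b held its reverse complement CCGCCC starting 79 bases before the start, and TGACG starting 146 bases before it. Of 33469 windows of this length in the table, 30.5% held the GC box and 18.2% the half-site TGACG on either strand. The glucocorticoid half-site AGAACA, found in 17.5% of the windows, was in the window of 0 of the 7 genes that have one; Scnn1a and Atp1b1 have none in the table. A match or its absence describes these letters only.

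The sodium pump subunit gave the widest separation of the 9. Atp1b1, which brings the pump to the membrane, stood at 12.14, 11.83 and 11.93 in MetS animals 1 to 3, against 11.61, 11.71, 11.43 and 11.70 in controls 1 to 4. The lowest MetS animal was 0.12 above the highest control, and MetS animal 1 stood above all others. The log2 difference was 0.35 (95% interval 0.11 to 0.59; limma, adjusted p = 0.324, unadjusted p = 0.00986), or 1.28-fold with an interval of 1.08 to 1.51. Without MetS animal 1 it was 0.27 (unadjusted p = 0.0377). With the SD over all probes in the fit as a measure of how wide an animal's values spread, the Atp1b1 difference was 0.22 (unadjusted p = 0.146) and that of Scnn1a 0.16 (unadjusted p = 0.243). That SD was 1.93, 1.90 and 1.88 in MetS animals 1 to 3, against 1.85, 1.77, 1.76 and 1.88 in controls 1 to 4. Its part in the differences was not tested.

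The levels of Atp1b1 and Scnn1a ran in the same order in all 7 animals, from control 3 as the lowest to MetS animal 1 as the highest. The Pearson r was 0.91 and the Spearman rho 1.0 over n = 7 animals, each with a two-sided exact permutation p of 0.0004, the smallest these permutations can give, and an adjusted p of 0.0143 over the 36 pairs of the 9 genes. The permutations exchanged all 7 animals regardless of group, so the group difference of both genes enters these p-values. Without the 2 animals farthest from the median of Scnn1a, r was 0.915. With each value taken relative to its group mean, r was 0.769, so the joint order was also seen within the groups, which hold too few animals for a test of their own. Every point shares its array between the genes. Next among the 36 pairs were Scnn1b and Scnn1g, with an r of 0.824 and a rho of 0.821 over n = 7 animals (exact permutation p = 0.0254 and 0.0341, adjusted p = 0.457 and 0.614 over the 36 pairs), and r was 0.955 without the 2 animals farthest from the median of Scnn1b. Only the first of these pairs passed after adjustment.

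**Figure D2:**
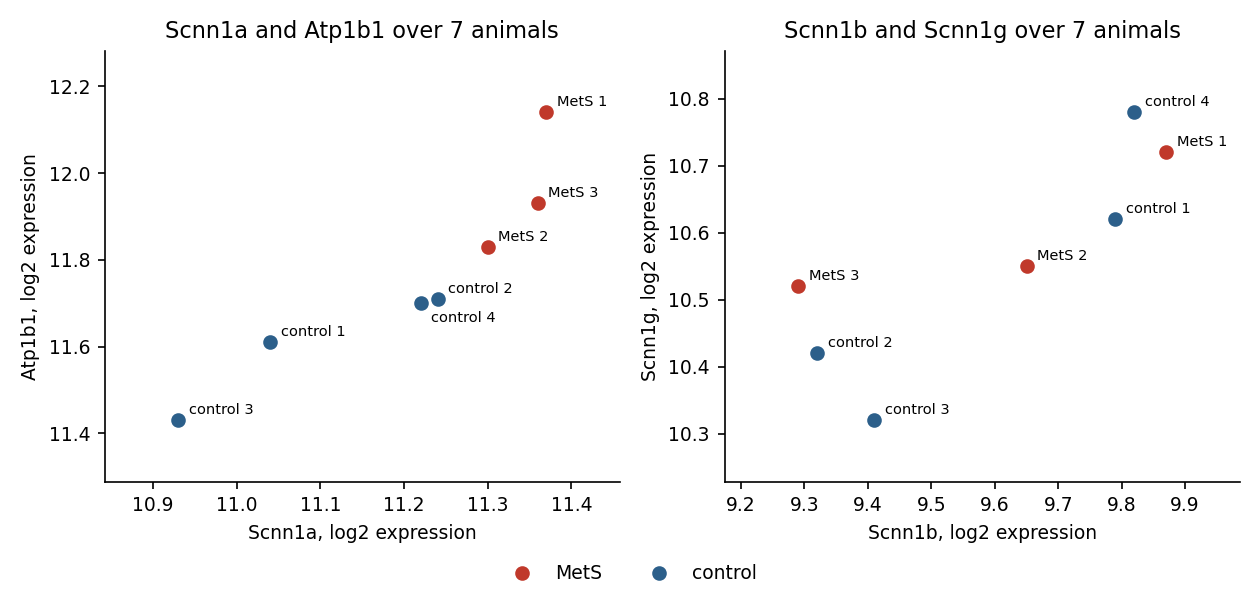
Log2 expression of Scnn1a against Atp1b1 (left) and of Scnn1b against Scnn1g (right), 1 point per animal with MetS and control in separate colours. The 7 animals keep the same order for Scnn1a and Atp1b1 with the MetS animals at the top, whereas MetS and control animals are mixed for Scnn1b and Scnn1g.

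Cftr, the chloride channel that is mutated in cystic fibrosis, stood at 8.54, 8.14 and 8.21 in MetS animals 1 to 3, against 8.33, 7.86, 8.39 and 8.25 in controls 1 to 4. MetS animal 1 was highest and control 2 lowest, with the rest mixed. The difference was 0.09 (95% interval -0.27 to 0.45; limma, adjusted p = 0.795).

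Among the water channels, Aqp1 is known from vessel endothelium and red cells, Aqp3 from basal cells of the large airways and Aqp4 from airway epithelium. Aqp1 stood at 10.95, 10.87 and 10.43 in MetS animals 1 to 3, against 10.81, 10.72, 10.59 and 10.72 in controls 1 to 4. The MetS animals included both the highest and the lowest values, and the difference was 0.04 (95% interval -0.27 to 0.35; limma, adjusted p = 0.896). Red cell markers, 4 of 6 measured, averaged 11.04 to 11.47 in MetS and 10.58 to 11.23 in controls on the log2 scale. All 4 stood higher in MetS, against 62% of named genes, and their part in the Aqp1 level was not tested. Endothelial markers, 6 of 7 measured, averaged 10.81 to 11.16 in MetS and 10.89 to 11.11 in controls.

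Aqp3, which passes glycerol as well as water, varied most of the 9 genes, over a 2.57-fold range. It stood at 8.32, 7.77 and 8.94 in MetS animals 1 to 3, against 8.47, 8.50, 7.92 and 7.58 in controls 1 to 4. Neither group stood together: MetS animal 3 was highest, control 4 lowest and MetS animal 2 next to lowest. The difference was 0.22 (95% interval -0.54 to 0.99; limma, adjusted p = 0.755), the widest interval of the 9, and without MetS animal 3 it was -0.08. Basal cell markers, 4 of 5 measured, averaged 6.89 to 6.94 in MetS and 6.90 to 7.03 in controls. Of these, Krt14 and Tp63 had probe means of 6.37 and 6.38, below the 25th percentile of probe means (6.48). The sequence before the start of Aqp3 is shown as that of the most variable gene, with the same motifs in capitals.
Aqp3, chr5:61040684-61040933, minus strand: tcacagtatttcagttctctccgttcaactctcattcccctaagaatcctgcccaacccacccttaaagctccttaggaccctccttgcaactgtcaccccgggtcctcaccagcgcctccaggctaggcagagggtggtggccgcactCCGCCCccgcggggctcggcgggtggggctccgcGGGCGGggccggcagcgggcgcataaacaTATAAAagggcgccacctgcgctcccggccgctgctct
The Aqp3 window held TATAAA starting 38 bases before the start, GGGCGG starting 67 bases before it and CCGCCC starting 101 bases before it. TATAAA was in 12.9% of all windows, and among the 7 genes with a window also in that of Aqp1.

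Aqp4 stood at 9.45, 9.73 and 9.83 in MetS animals 1 to 3, against 9.61, 9.10, 9.11 and 9.90 in controls 1 to 4. Controls 2 and 3 stood below all others and control 4 above all others. The difference was 0.24 (95% interval -0.26 to 0.74; limma, adjusted p = 0.606), as large as that of Scnn1a but with a spread between animals of 0.33 against 0.12 (pooled SD). Controls 2 and 3 were also the lowest in array SD, and without both the Aqp4 difference was -0.08.

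Nedd4l, whose product withdraws the sodium channel from the surface, stood at 10.99, 10.96 and 10.41 in MetS animals 1 to 3, against 10.45, 10.49, 10.59 and 10.80 in controls 1 to 4. MetS animals 1 and 2 were above all controls and MetS animal 3 below all of them. The difference was 0.21 (95% interval -0.17 to 0.58; limma, adjusted p = 0.555), and it depended on single animals: 0.11 without MetS animal 1 (unadjusted p = 0.567), 0.12 without MetS animal 2 (unadjusted p = 0.536) and 0.40 without MetS animal 3 (unadjusted p = 0.0125, adjusted p = 0.422). MetS animal 3 was also the lowest of the 7 for Scnn1b and Aqp1 and the highest for Aqp3.

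**Figure D3:**
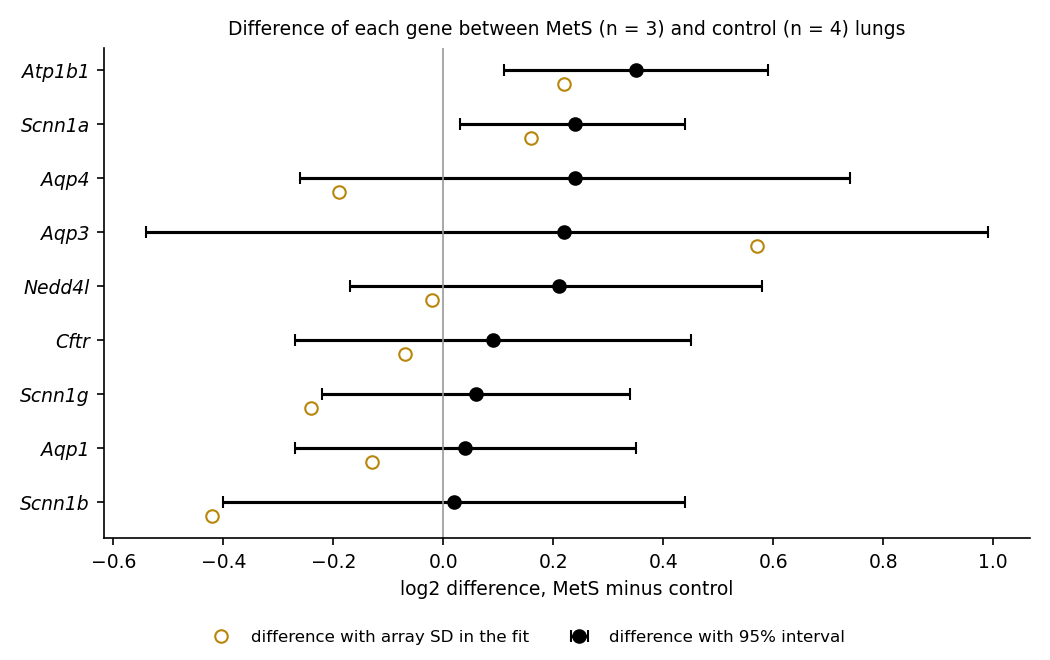
Log2 difference of each gene, MetS minus control, as filled points with 95% intervals from limma, and as open circles with the SD over all probes in the fit. The intervals of Atp1b1 and Scnn1a lie above 0 and the other 7 include 0; with that SD in the fit 6 of the 9 differences fall below 0.

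The genes around these 9 were read from 6 lists of 89 genes, 79 of them measured. Of the 79, 52 stood higher in MetS and 27 lower; their median difference was 0.05, against 0.04 for all named genes. None passed over all probes (limma), and 2 stood higher and 1 lower at an unadjusted p under 0.05, or 3.8% against 13% of named genes.

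Among 10 other subunits and regulators of the sodium pump, 3 stood higher and 7 lower, with a median of -0.01. Atp1b3, another beta subunit, averaged 10.63 ± 0.19 in MetS (SD, n = 3) and 10.44 ± 0.15 in controls (SD, n = 4), with overlapping groups. Fxyd3, a small membrane regulator of the pump, averaged 9.34 ± 0.23 in MetS and 9.10 ± 0.12 in controls, and Fxyd5, another of that family, 10.06 ± 0.07 in MetS and 9.93 ± 0.14 in controls.

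Of 9 other aquaporins 2 stood higher and 7 lower, with a median of -0.03. Aqp5, the water channel of alveolar type 1 cells, stood at 12.04, 11.81 and 12.04 in MetS animals 1 to 3, against 11.88, 11.91, 12.02 and 11.90 in controls 1 to 4. Its difference was 0.04 (95% interval -0.15 to 0.23; limma, adjusted p = 0.837), so a difference of more than 0.23 on the log2 scale lay outside the interval. Aqp9, a glycerol and water channel, averaged 7.33 ± 0.08 in MetS (SD, n = 3) and 7.44 ± 0.03 in controls (SD, n = 4) without overlap. The Aqp9 difference was -0.11 (95% interval -0.25 to 0.03, limma, adjusted p = 0.435). Of all probes, 6.84% had every MetS animal below every control. Aqp2 and Mip differed by -0.07 and -0.06.

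The list of genes that control the sodium channel was chosen with earlier results of these data known, so its counts are a description. Of the related lists it had the most even direction: 18 of 18 measured genes stood higher, against 62% of named genes. Their median was 0.10, against 0.04 for all named genes. Above the 25th percentile of probe means it was 17 of 17, against 71.7% of named genes. With the SD over all probes in the fit 12 of the 18 stood higher, against 48.8% of named genes, and without controls 2 and 3 it was 15 of 18, against 54.8%. Tsc22d3, a glucocorticoid induced gene whose product acts with the channel's kinase, averaged 10.80 ± 0.27 in MetS (SD, n = 3) and 10.20 ± 0.43 in controls (SD, n = 4). Its difference of 0.60 was 0.38 without control 3, 0.34 without controls 2 and 3 and 0.13 with the SD over all probes in the fit. Usp10, a deubiquitinase, averaged 9.48 ± 0.05 in MetS and 9.21 ± 0.17 in controls, without overlap (limma, adjusted p = 0.335), and its difference of 0.27 was 0.14 without controls 2 and 3 and 0.08 with that SD in the fit. Pik3r1, the regulatory subunit of phosphoinositide 3-kinase, averaged 11.41 ± 0.07 in MetS and 11.30 ± 0.03 in controls.

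The best known hormone target of this list showed little difference. Sgk1, the kinase that restrains Nedd4l, stood at 11.52, 11.41 and 11.41 in MetS animals 1 to 3, against 11.34, 11.41, 11.11 and 11.71 in controls 1 to 4. Its difference was 0.06 (95% interval -0.26 to 0.37; limma, adjusted p = 0.854). The glucocorticoid receptor gene Nr3c1 averaged 10.96 ± 0.09 in MetS and 10.85 ± 0.09 in controls, the mineralocorticoid receptor gene Nr3c2 9.16 ± 0.09 in MetS and 9.07 ± 0.14 in controls, and Nedd4, a close relative of Nedd4l, 12.12 ± 0.07 in MetS and 12.05 ± 0.01 in controls.

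Proteases that cleave the sodium channel, and their inhibitors, stood higher in 8 of 10 cases with a median of 0.05. Prss8, the channel activating protease prostasin, averaged 10.98 ± 0.11 in MetS and 10.92 ± 0.15 in controls, Furin 9.41 ± 0.03 in MetS and 9.26 ± 0.15 in controls, and the matriptase gene St14 8.89 ± 0.06 in MetS and 8.75 ± 0.20 in controls. Plau, the urokinase gene, averaged 8.39 ± 0.11 in MetS and 8.59 ± 0.09 in controls, with overlapping groups (limma, adjusted p = 0.362).

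Among 21 genes of chloride and bicarbonate transport 14 stood higher and 7 lower, with a median of 0.07. Slc12a2, the cotransporter that loads epithelial cells with chloride, averaged 10.70 ± 0.06 in MetS (SD, n = 3) and 10.55 ± 0.11 in controls (SD, n = 4). The chloride channel genes Clcn3 and Clcn2 averaged 8.92 ± 0.02 and 6.18 ± 0.04 in MetS, against 8.75 ± 0.13 and 5.99 ± 0.17 in controls. Of 11 tight junction genes, which seal the route between cells, 7 stood higher and 4 lower, with a median of 0.04. Cldn7 averaged 9.73 ± 0.19 in MetS and 9.48 ± 0.11 in controls, while Cldn4 averaged 8.39 ± 0.08 in MetS and 8.55 ± 0.14 in controls and Cldn3 differed by -0.11.

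**Figure D4:**
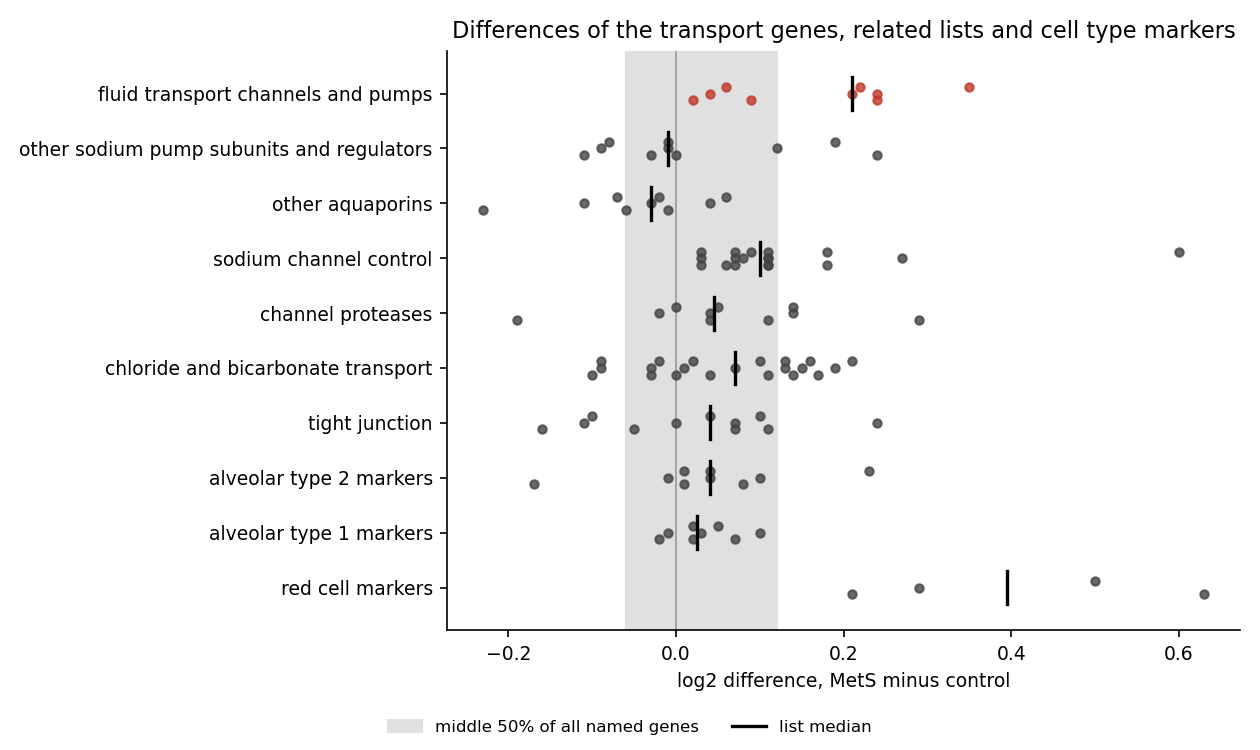
Log2 differences, MetS minus control, of the 9 transport genes, of 6 related gene lists and of 3 marker lists, 1 point per gene with the list median as a bar; the grey band holds the middle 50% of all named genes, between -0.06 and 0.12. The 9 genes have a median of 0.21, the medians of the related lists lie between -0.03 and 0.10, those of the alveolar markers are 0.04 and 0.03, and that of the red cell markers is 0.39.

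The mean levels of alveolar marker lists overlapped between the groups. Alveolar type 2 markers, all 9 measured, averaged 12.20 to 12.24 in MetS and 12.14 to 12.23 in controls, with a median difference of 0.04, and alveolar type 1 markers, all 8 measured, averaged 12.65 to 12.78 in MetS and 12.60 to 12.70 in controls, with a median of 0.03. In each list 1 marker stood higher in every MetS animal than in every control: the surfactant protein gene Sftpd, at 12.18 ± 0.06 in MetS and 11.95 ± 0.16 in controls (limma, adjusted p = 0.363), and the caveolin gene Cav1, at 13.38 ± 0.03 in MetS and 13.31 ± 0.02 in controls (limma, adjusted p = 0.546). Of named genes, 5.57% had every MetS animal above every control. The part of the alveolar cells in the levels of the transport genes was not tested. In whole lung, fewer cells of a type and less RNA per cell cannot be told apart. Heart muscle markers, 7 of 8 measured, averaged 8.65, 7.36 and 7.21 in MetS animals 1 to 3, against 9.67, 7.06, 7.17 and 6.97 in controls 1 to 4, so that MetS animal 1 and control animal 1 stood apart in this mean. The markers Myl7 and Nppa did not follow, at 7.38 and 6.76 in MetS animal 1 and 7.71 and 6.76 in control animal 1. Myl7 was highest in MetS animal 2, at 8.23, and Nppa in control 2, at 7.06. The part of heart muscle in the Atp1b1 level was not tested.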

How the data were processed

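Whole lung RNA, kept where its integrity number was at least 6, was labelled from 50 ng, per the labels' protocols. Log2 expression values of 9 arrays were deposited. R 2.11.0, RMA and limma are named, without a role, per the submitters' processing notes. No genome build is named. Medians per animal lay between 7.64 and 7.69.

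Repeat arrays were averaged per animal, and MetS was compared with control by lmFit and eBayes (limma 3.58.1, R 4.3.3), two-sided, with Benjamini-Hochberg adjustment over 28826 probes and a threshold of 0.05. The 95% intervals come from that fit and are not adjusted for the number of genes. Correlations used Python 3.11.15, numpy 2.4.6 and scipy 1.17.1. Exactly 1 symbol was given for 15209 probes, of which 15204 matched RefSeq (GRCr8, used for names, neighbours and promoter windows). The probe with the highest mean stood for a gene; each of the 9 genes had 1. All 9 lay above the 25th percentile of probe means (6.48), and no filter on low values was used. Levels of different probes were not set against each other.

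Named were the 9 genes, 7 measured genes taken whatever their value (Aqp5, Sgk1, Nedd4, Prss8, Slc12a2, Nr3c1 and Nr3c2) and the 3 genes of each related list with the smallest p. The genes most like each of the 9 were the 3 with the highest Pearson r among 11999 genes. The genes, lists and alternatives were chosen with earlier results of these data known. Some genes of the lists are not reported here. The animals' number limits the precision. The test was checked on simulated data, drawn independently for each probe and with shifts larger than the differences of the 9 genes. The labels do not state whether replicate numbers pair the animals. Deviations from the group means correlated at 0.271, -0.118 and 0.339 for numbers 1 to 3. Between animals of different numbers they correlated at -0.421 to 0.385, so these values cannot decide it.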

Additional observations from a re-analysis of the deposited data

Results flagged for a closer look

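Of 33 genes whose 4 control animals were examined, 2 had a control far from the other 3, and chance alone flags about 1 group in 20. The glucocorticoid receptor gene Nr3c1 stood at 10.99 in control 4 and between 10.80 and 10.82 in the other controls. The water channel gene Aqp2 stood at 7.30 in control 1 and between 7.60 and 7.65 in the other controls. None of the 9 transport genes was among them.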

How the results depend on the processing

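Atp1b1 and Scnn1a stayed higher in MetS in all 19 alternatives, between 0.22 and 0.42 for Atp1b1 and between 0.16 and 0.28 for Scnn1a, and none of the 9 genes passed the adjusted threshold in any. The 2 genes at an unadjusted p under 0.05 became 1 to 2 when 1 animal was left out: 1, Atp1b1, without MetS animal 1, MetS animal 2, control 1 or control 3, and 2, Atp1b1 and Nedd4l, without MetS animal 3. With the SD over all probes in the fit 0 genes were higher and 2, Scnn1b and Scnn1g, lower at that p. In that fit 483 of all 28826 probes were higher and 540 lower at that p. The smallest adjusted p over all probes was 0.999 (limma). That fit turned Scnn1b to -0.42 (unadjusted p = 0.0205), Scnn1g to -0.24 (unadjusted p = 0.0159), Cftr to -0.07, Aqp1 to -0.13, Aqp4 to -0.19 and Nedd4l to -0.02. Without controls 2 and 3, Scnn1b was -0.20, Scnn1g -0.10, Aqp1 -0.01 and Aqp4 -0.08. Scnn1b was -0.05 when quantile normalized again and -0.06 with array weights. Without single animals Scnn1b ranged from -0.11 to 0.18, Scnn1g from -0.01 to 0.14, Cftr from -0.03 to 0.17, Aqp1 from -0.06 to 0.20, Aqp3 from -0.08 to 0.51, Aqp4 from 0.13 to 0.40 and Nedd4l from 0.11 to 0.40. The cause of these turns was not tested.

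Among the related genes the SD in the fit turned Fxyd5 to -0.08, Mip to 0.05, Aqp2 to 0.08, Furin to -0.02, St14 to -0.03, Slc12a2 to -0.01, Cldn4 to 0.01, Sgk1 to -0.22, Prss8 to -0.16 and Nr3c2 to -0.04. Without controls 2 and 3, Mip was 0.02, Aqp2 0.03, Sgk1 -0.08, Prss8 -0.06 and Nr3c2 -0.02. Mip was 0.07 when quantile normalized again, and Aqp2 0.01 with array weights. Without single animals Aqp5 ranged from -0.002 to 0.12, Sgk1 from -0.04 to 0.16 and Prss8 from -0.01 to 0.11.

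With the replicate block, on animals 1 to 3 of each group, 2017 probes passed over all probes against 0 without it, and 0 of the 9 genes; Atp1b1 was 0.38 (limma, adjusted p = 0.122) and Scnn1a 0.27 (adjusted p = 0.189). Whether the numbers pair the animals is not stated in the labels, and this fit leaves out control 4.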

Other observations

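The genes whose values over the 7 animals were most like those of the transport genes, by Pearson r among 11999 named genes above the 25th percentile of probe means, are given as a description. They were picked for the highest r, and all genes share the same arrays. For Scnn1a they were Doc2b and Adarb1 (r = 0.959 each) and Tns4 (r = 0.958), for Atp1b1 Polm (r = 0.98), Pdxdc1 (r = 0.974) and Ahcyl2 (r = 0.969), and for Scnn1g Cyp20a1 (r = 0.994), the hexokinase gene Hk2 (r = 0.988) and Prdm4 (r = 0.979). For Scnn1b they were Tomm22 and Mtrr (r = 0.987 each) and Agpat5 (r = 0.984). For Aqp3, the most variable of the 9, the closest was Myo1g, at an r of 0.956, followed by Clpb (r = 0.93) and Lyve1 (r = 0.928). For Cftr they were Serpind1 (r = 0.993), Uxt (r = 0.988) and Prrc1 (r = 0.976), for Aqp1 Cdkn1a and Trim3 (r = 0.975 each) and Dnaja3 (r = 0.967), for Aqp4 Helz (r = 0.982), Ric8b (r = 0.979) and Bst1 (r = 0.972), and for Nedd4l Galnt18 (r = 0.987), Dnal1 (r = 0.979) and Zfyve21 (r = 0.965). No gene was among the closest 3 of more than 1 of the 9.

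Ionocytes are rare airway cells known for high Cftr. Their 6 markers, all measured, averaged 6.50 to 6.57 in MetS and 6.50 to 6.64 in controls, close to the 25th percentile of probe means, with 2 higher and 4 lower. Ciliated cell markers, 5 of 6 measured, averaged 8.67 to 8.96 in MetS and 8.54 to 8.82 in controls. All 5 stood higher, against 62% of named genes, by 0.00 for Foxj1 up to 0.24 for Rsph1. Without control 4 it was 3 of 5, against 62.5% of named genes. Club cell markers, 4 of 5 measured, averaged 10.97 to 11.21 in MetS and 10.84 to 11.32 in controls. Mesothelial markers, 3 of 5 measured, averaged 7.22 to 7.91 in MetS and 7.38 to 7.62 in controls. Leukocyte markers, 5 of 6 measured, averaged 9.19 to 9.34 in MetS and 9.05 to 9.32 in controls. Cartilage markers, all 5 measured, averaged 6.97 to 7.06 in MetS and 7.04 to 7.21 in controls, and secretory and gland markers, 4 of 7 measured, 7.75 to 7.84 in MetS and 7.70 to 8.48 in controls. None of these markers passed over all probes (limma).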
